A study of Mus musculus with 6 samples.

Results

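Iron absorption and storage were followed through 10 genes: the reductases Cybrd1 and Steap4, the importer Slc11a2, the exporter Slc40a1, the ferroxidase Heph, the transferrin receptor Tfrc and its partner Hfe, the storage protein Fth1, and the regulators Ireb2 and Epas1. They were taken as every probe set whose single platform symbol was one of these names, which gave 24 of the 45101 probe sets on the array and 10 of 18193 genes with a single symbol. The set was put together partly because Cybrd1 stood much higher in the deficient group. The difference between groups therefore chose it, and the members' differences are given as descriptions with no p-value.

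Total RNA of intestinal epithelial cell preparations was measured on 1 Affymetrix array per mouse, in 3 control and 3 deficient mice of a mixed 129/SV and C57BL/6 background. All 6 mice carried the floxed Pggt-Ibeta gene (Pggt1b). Its product is the beta subunit of GGTase-I, which attaches a geranylgeranyl lipid to small GTPases. All received 1 mg tamoxifen on each of 3 days, with cells isolated on day 6. Controls were negative and deficient mice positive for VillincreERT2, a tamoxifen-inducible recombinase under an epithelial promoter, so the recombinase itself and the deletion cannot be told apart. The sources used here do not give the intestinal segment sampled or the sex and age of the mice.

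In the small intestine, dietary ferric iron is reduced at the brush border by Cybrd1 (duodenal cytochrome b) and carried into the enterocyte by Slc11a2 (DMT1). It is either stored in ferritin or exported across the basolateral membrane by Slc40a1 (ferroportin), with Heph (hephaestin) oxidising it for transferrin. Absorption is strongest in the duodenum. Iron regulatory proteins such as Ireb2 act on the mRNAs of Tfrc, Slc11a2, Slc40a1 and ferritin, and the hypoxia factor Epas1 (HIF-2 alpha) drives transcription of Cybrd1, Slc11a2 and Slc40a1 when iron is short.

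The arrays were alike in range, with 35.6% to 36.5% of probe sets above 5 on the log2 scale, the level used to filter dim genes. The targeted gene did not mark the groups: the brightest of its 4 probe sets read 9.30, 9.55 and 9.33 in control replicates 1, 2 and 3 and 9.75, 8.88 and 8.83 in deficient replicates 1, 2 and 3. The sources used here do not say whether any of its probe sets covers the deleted part, and the directions below rest on the labels. The preparations carried enterocyte RNA, all 9 measured enterocyte markers being tested and the villus protein gene Vil1 lying between 13.92 and 14.65. Relative to its control mean, the mean of the 9 was -0.29, 0.19 and 0.10 in control replicates 1, 2 and 3. In deficient replicates 1, 2 and 3 it was -0.64, -0.14 and -0.07. By gene, 5 had lower and 4 higher means in the deficient arrays, from Lct (-0.94) to Apoa1 (0.17). At a limma adjusted p of 0.05, 0 of the 9 passed. Defining markers of endothelial cells (9 of 9, Pecam1 and Cdh5 among them) and of red blood cells (5 of 5) were at or below 5 on all arrays. Lymphocyte markers were lower in the deficient arrays: 9 of 11 tested markers of T cells and intraepithelial lymphocytes passed the threshold of a limma adjusted p of 0.05. The summed level of all 13 measured lymphocyte markers was 14.59 to 14.97 in controls and 10.72 to 12.75 in deficient arrays (log2). In such bulk RNA, fewer cells of a type and less RNA per cell cannot be told apart.

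Cybrd1 had the widest separation of group means among the 10 genes. Its brighter probe set read 5.05, 8.21 and 6.16 in control replicates 1, 2 and 3 and 10.99, 8.44 and 9.62 in deficient replicates 1, 2 and 3. All 3 deficient arrays lay above all 3 controls, but control replicate 2 came close to deficient replicate 2. The means were 6.47 ± 1.60 (SD, n = 3) and 9.68 ± 1.27 (SD, n = 3), a log2 difference of 3.21 ± 0.91 (SE of the fit) or 9.26-fold. Of the 8893 genes tested, 3 had a larger positive difference. Its spread was also wide, as 99.7% of tested genes had a smaller SD among controls and 98.8% a smaller SD among deficient arrays.

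The other Cybrd1 probe set gave the same picture at a lower level. It read 2.83, 5.95 and 4.41 in controls 1, 2 and 3 and 10.21, 6.73 and 7.31 in deficient replicates 1, 2 and 3. Here too the groups did not overlap, control replicate 2 was the highest control and deficient replicate 1 the highest array. The log2 difference was 3.69, which rests on control values near the floor of the background correction. With values at or below 5 raised to 5 it was at least 6.80-fold. Leaving out control replicate 2 put the difference of the brighter probe set at 4.08, and leaving out deficient replicate 1 put it at 2.56.

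**Figure D1:**
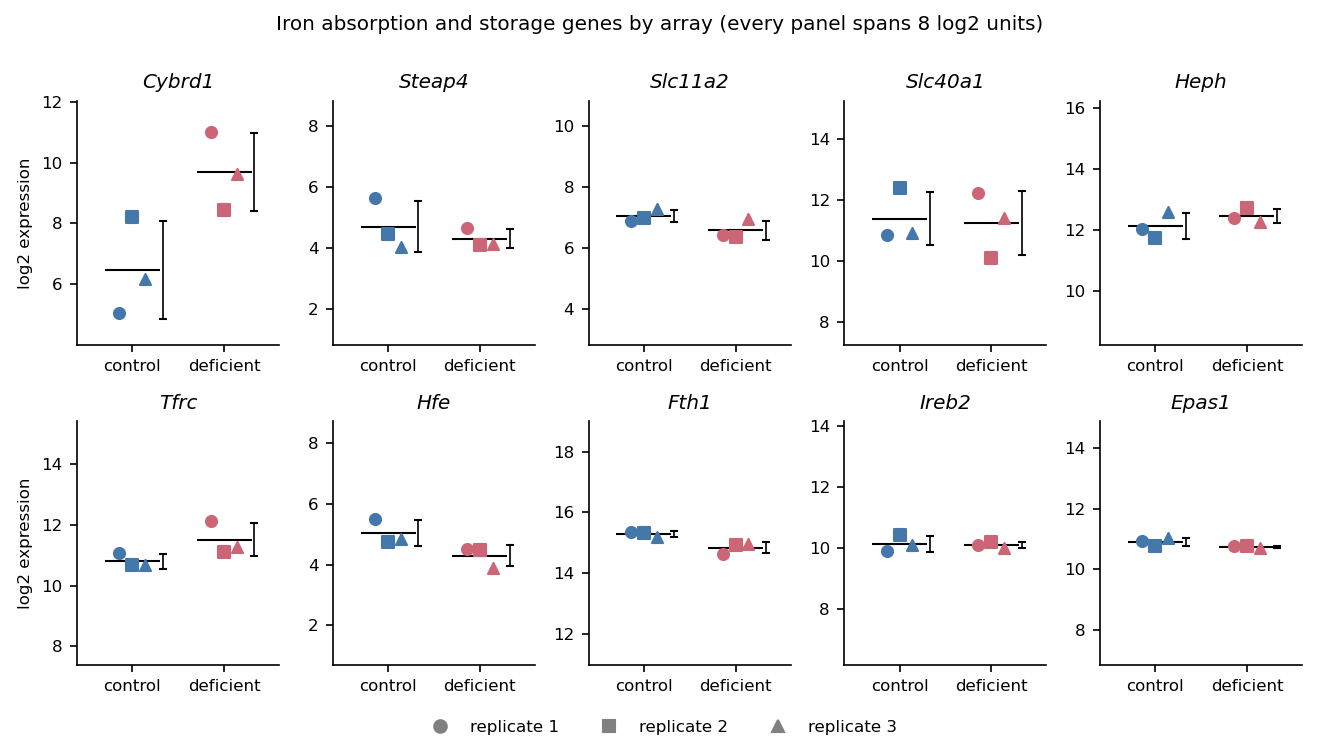
Log2 expression of the 10 iron genes, 1 panel per gene on a y axis spanning 8 log2 units, for 3 control (blue) and 3 deficient (red) arrays. Horizontal lines are group means, bars are SDs over 3 arrays, and symbols mark the replicate. Cybrd1 ran from 5.05 to 8.21 in controls and from 8.44 to 10.99 in deficient arrays, while the means of the other 9 genes differed by less than 1 unit.

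Steap4, a metalloreductase of the STEAP family, lay near the floor. Its brighter probe set read 5.64, 4.47 and 4.03 in controls and 4.67, 4.12 and 4.14 in deficient arrays, replicates 1, 2 and 3 in each case. The groups overlapped, and control replicate 1 alone stood above 5. The other probe set lay between 2.32 and 2.38 on all 6 arrays. With 1 array above 5 the gene was not tested, and the mean difference of -0.40 turned to 0.06 without control replicate 1. At such low levels this second reductase cannot show whether the wide separation of Cybrd1 was shared.

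Slc11a2, the importer that takes up the iron reduced by Cybrd1, had lower means in the deficient arrays on all 4 of its probe sets. The brightest read 6.90, 6.98 and 7.29 in control replicates 1, 2 and 3 and 6.42, 6.38 and 6.95 in deficient replicates 1, 2 and 3. Deficient replicate 3 lay within the control range, so the groups overlapped. The difference was -0.47 ± 0.22 (SE), from 7.06 ± 0.21 (SD, n = 3) to 6.58 ± 0.32 (SD, n = 3). On the other 3 probe sets it was -0.70, -0.27 and -0.85. The probe set at -0.85 had 1 array above 5, and with values at or below 5 raised to 5 its difference was -0.40. The probe set at -0.27 rested on control replicate 2. It read 5.10, 6.56 and 5.46 in control replicates 1, 2 and 3 and 5.50, 5.25 and 5.57 in deficient replicates 1, 2 and 3. The probe set at -0.70 was the 1 whose groups did not overlap, with controls at 6.30 to 6.48 and deficient arrays at 5.07, 5.75 and 6.24. Importer and reductase means therefore lay on opposite sides of the controls. Slc11a2 makes transcripts with and without an iron-responsive element, and the sources used here do not say which of them each probe set reads.

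Slc40a1, the cellular iron exporter, varied widely without separating the groups. Its brighter probe set read 10.84, 12.38 and 10.90 in control replicates 1, 2 and 3 and 12.21, 10.10 and 11.39 in deficient replicates 1, 2 and 3. The highest array was a control and the lowest a deficient one. The difference was -0.14 ± 0.62 (SE), and it ran from -0.63 without deficient replicate 1 to 0.43 without deficient replicate 2. The other probe set read 7.59, 8.69 and 8.02 against 9.73, 7.74 and 8.46, a difference of 0.55. The sign thus depended on the probe set and on single arrays. Both probe sets agreed on the order within each group: control replicate 2 was the highest control, deficient replicate 1 the highest and deficient replicate 2 the lowest deficient array, as for Cybrd1. The control SD of Slc40a1 exceeded that of 96.6% of tested genes.

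Heph, the membrane ferroxidase that works with Slc40a1, differed by less than its spread. Its single probe set read 12.02, 11.74 and 12.58 in control replicates 1, 2 and 3 and 12.38, 12.71 and 12.26 in deficient replicates 1, 2 and 3. Control replicate 3 lay inside the deficient range. The difference was 0.34 ± 0.26 (SE), against a control SD of 0.43. The basolateral export pair thus held no member whose groups were apart.

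Tfrc, the receptor that takes up transferrin-bound iron from the blood side and is abundant in dividing crypt cells, stood somewhat higher in the deficient arrays. Its bright probe set read 11.08, 10.66 and 10.66 in control replicates 1, 2 and 3 and 12.13, 11.11 and 11.27 in deficient replicates 1, 2 and 3. The groups did not overlap, but control replicate 1 and deficient replicate 2 were nearly level. The difference was 0.70 ± 0.30 (SE), or 1.62-fold, and 0.38 without deficient replicate 1. The other 5 probe sets, 3 of them control-type sets of the array, lay at or below 5 on all arrays, with differences between 0.00 and 0.35. Crypt markers stood above their control mean in the deficient arrays. Of 5 measured, Lgr5 and Ascl2 were at or below 5 throughout. The mean of the other 3 (Olfm4, Mki67 and Top2a) relative to its control mean was 1.35, -1.56 and 0.21 in control replicates 1, 2 and 3 and 0.82, 1.69 and 1.09 in deficient replicates 1, 2 and 3. For the 5 together the summed level was 9.35 to 13.00 in controls and 11.98 to 13.67 in deficient arrays. Their part in the Tfrc difference was not tested.

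Hfe, the MHC class I-like protein that binds the transferrin receptor, lay around the filter level. Its brighter probe set read 5.51, 4.73 and 4.83 in controls 1, 2 and 3 and 4.51, 4.48 and 3.90 in deficient replicates 1, 2 and 3. All deficient values lay below all controls, but 5 of the 6 were under 5, so the gene was not tested and no fold is given. The other probe set stayed between 2.81 and 2.91.

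Fth1, the ferritin heavy chain that oxidises and stores iron, was slightly lower in the deficient arrays. Its brighter probe set read 15.36, 15.31 and 15.18 in control replicates 1, 2 and 3 and 14.63, 14.93 and 14.97 in deficient replicates 1, 2 and 3. The groups did not overlap on this probe set, and the difference was -0.44 ± 0.17 (SE), with the controls 1.36-fold higher. The other probe set, whose design can match several transcripts, read 14.12, 13.88 and 14.02 against 13.19, 14.01 and 13.81, with overlapping groups and a difference of -0.33. Ferritin heavy chain has processed pseudogenes, and related sequences may contribute to both values. Ferritin mRNA is controlled mainly at translation, which these arrays do not measure.

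The regulators differed little between groups. Ireb2 (iron regulatory protein 2) read 9.91, 10.43 and 10.12 in control replicates 1, 2 and 3 and 10.11, 10.21 and 10.01 in deficient replicates 1, 2 and 3, a difference of -0.05 ± 0.19 (SE). All 3 deficient values lay inside the control range. Epas1 read 10.94, 10.77 and 11.02 against 10.76, 10.76 and 10.71, a difference of -0.17 ± 0.15 (SE). Deficient values were all lower, by as little as 0.01 between control replicate 2 and the nearest deficient array. The dimmer Epas1 probe set went the other way, at 5.62, 5.43 and 5.69 against 6.53, 5.44 and 5.54, a difference of 0.26 that came from deficient replicate 1. Epas1 is also strongly expressed by endothelium. All 9 endothelial markers were at or below 5 on every array, with summed levels of 5.89 to 5.97 in controls and 5.92 to 5.97 in deficient arrays. The part of endothelial content in the Epas1 values was not tested.

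**Figure D2:**
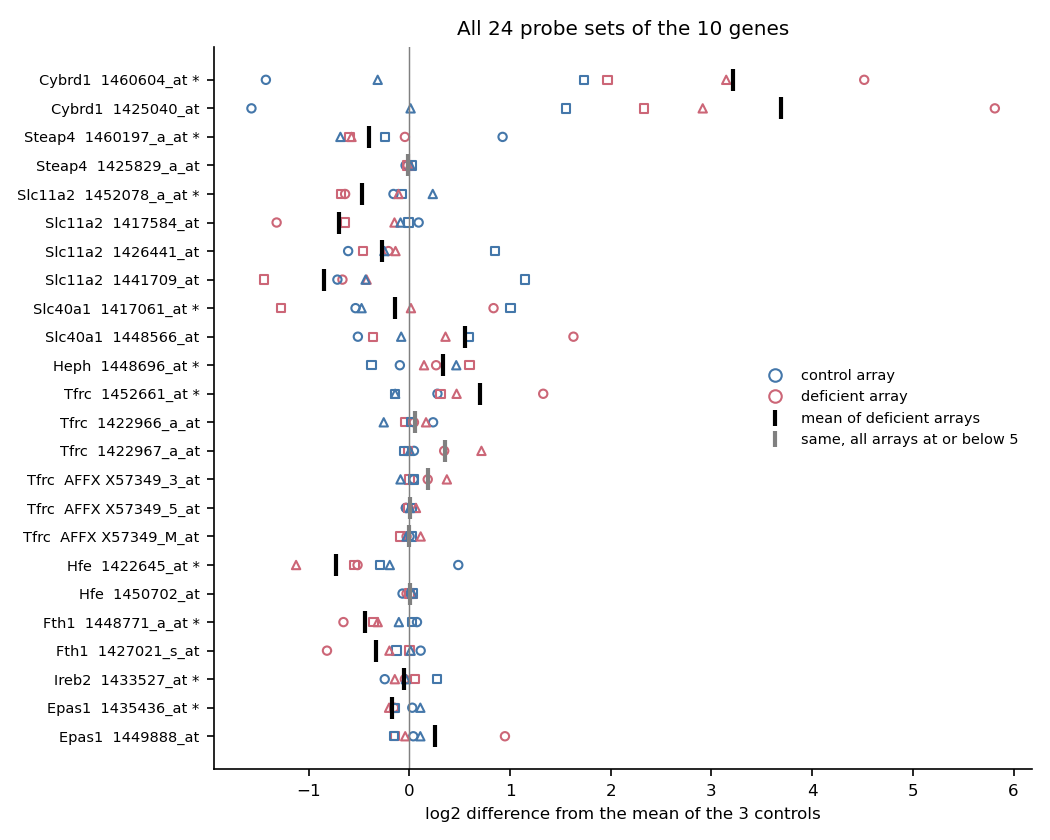
All 24 probe sets of the 10 genes. The x axis is the log2 difference from the mean of the 3 controls, with open symbols for single control (blue) and deficient (red) arrays and a vertical mark for the deficient mean, grey where all arrays lay at or below 5. Asterisks mark the probe set used for the gene. Both Cybrd1 probe sets lie far to the right, at 3.21 and 3.69, the 4 Slc11a2 probe sets lie at -0.27 to -0.85, and the 2 Slc40a1 probe sets have opposite signs.

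As a set, the 10 genes had 3 higher and 7 lower means in the deficient arrays. Their median difference was -0.15, against -0.04 over all 8893 genes tested. Of the 10, 8 passed the filter of more than 5 on at least 3 arrays. In the limma fit over all genes 0 of these 8 passed at an adjusted p of 0.05, beside 2.09% of all genes tested (0.112% higher and 1.98% lower), and 2 had an unadjusted p under 0.05, beside 16.9% of all genes. Groups did not overlap for 4 of the 8, beside 25.7% of all genes. Cybrd1 and Tfrc had all deficient arrays above all controls, as did 9.00% of genes, and Fth1 and Epas1 had all below, as did 16.7%. Because the set was chosen on this contrast, these counts are descriptions and nothing is read from them.

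Cybrd1 and Tfrc were the members whose deficient arrays all lay above the controls, and the sequences just upstream of their first annotated starts are shown for that reason. A RefSeq table of promoter windows of mouse assembly GRCm38.p6 held 6 of the 10 members (Cybrd1, Steap4, Ireb2, Hfe, Tfrc and Fth1). The 250 bases before the start are printed 5′ to 3′ on the gene's strand, the plus strand for both, at chr2:71117804-71118053 for Cybrd1 and chr16:32608646-32608895 for Tfrc. Capitals mark matches on either strand to ACGTG or GCGTG, the core letters bound by hypoxia factors, which read CACGT or CACGC on the other strand.
Cybrd1: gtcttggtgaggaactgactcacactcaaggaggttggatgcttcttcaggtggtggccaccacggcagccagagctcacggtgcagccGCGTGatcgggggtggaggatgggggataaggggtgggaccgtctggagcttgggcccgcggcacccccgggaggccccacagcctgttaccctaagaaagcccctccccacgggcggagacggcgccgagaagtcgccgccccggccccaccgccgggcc
Tfrc: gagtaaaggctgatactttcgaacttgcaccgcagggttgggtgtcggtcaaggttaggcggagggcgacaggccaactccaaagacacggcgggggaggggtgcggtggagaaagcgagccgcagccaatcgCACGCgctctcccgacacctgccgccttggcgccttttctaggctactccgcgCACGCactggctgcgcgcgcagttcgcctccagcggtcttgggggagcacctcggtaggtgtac

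The Cybrd1 stretch held 1 match to GCGTG, starting 161 bases before the start, and the Tfrc stretch held 2, starting 117 and 64 bases before it. Neither held ACGTG. Of 32851 windows of this length, 38.6% held a match to either motif, 28.2% to GCGTG and 16.6% to ACGTG, so such matches are common. The windows at the first starts of Steap4, Hfe and Fth1 held 0 matches, as did the Ireb2 window, at another of its starts. A further start of Tfrc had 3 matches and one of Fth1 had 1. A match is a description of these letters and not a binding site.

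The genes whose profile over the 6 arrays was most like that of Cybrd1 were found by centring each tested gene on its own mean and taking the root mean square difference in log2 units. The 5 nearest were Il33 (1.02), an epithelial alarmin, Tubb2b (1.13), a beta tubulin, Btc (1.15), an EGF receptor ligand, Eif4ebp1 (1.18), a repressor of translation initiation, and S100a14 (1.20), a calcium-binding protein. Il33, the nearest, read 7.58, 9.19 and 8.45 in control replicates 1, 2 and 3 and 10.97, 9.34 and 9.49 in deficient replicates 1, 2 and 3. Like Cybrd1 it was highest in control replicate 2 among controls and in deficient replicate 1 among all arrays. No iron gene was among the 5. The nearest members were Tfrc, at a difference of 1.69 and rank 276, and Slc40a1, at 1.75 and rank 433, of 8892 genes. Both were little nearer than Ireb2, at 1.96 and rank 2498, whose group means differed by -0.05. The ranks of these members are therefore weak as a measure of likeness to Cybrd1.

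Control replicate 2, which came closest to the deficient arrays in Cybrd1, also stood apart in markers of intestinal segment and of crypt and Paneth cells. The 10 proximal markers had a mean, relative to their control mean, of -0.23, 0.39 and -0.16 in control replicates 1, 2 and 3, and of -1.51, -1.11 and -0.37 in deficient replicates 1, 2 and 3. Their summed level was 16.64 to 16.94 in controls and 15.81 to 16.57 in deficient arrays, with 0 of 10 past the limma threshold and none at or below 5 throughout. The 7 ileal markers above 5 stood at 0.59, -1.29 and 0.70 in controls and 0.50, 0.47 and -0.17 in deficient arrays. Of these 7, 1 passed the limma threshold, lower in the deficient arrays: Cubn, a receptor for vitamin B12 with intrinsic factor, named after its values were seen. Osr2 was at or below 5 throughout, and the summed level of all 8 was 14.08 to 16.16 in controls and 15.41 to 15.89 in deficient arrays. By these means control replicate 2 was the highest control for proximal markers and the lowest array for ileal markers. Among proximal markers, Cyp2b10 and Gstm3 were higher in control replicate 3, and Hoxb3 was lowest among controls in control replicate 2. Among ileal markers, Slc51a and Cubn were higher in control replicate 2 (11.84 and 12.39) than in deficient replicate 1 (11.11 and 10.97). The other markers of both lists went with the means. Control replicate 2 was the highest control for Cybrd1 and Slc40a1. It was also the lowest array for the mean of the crypt markers, at -1.56. The mean of 4 Paneth cell markers stood at 0.58, -0.65 and 0.07 in control replicates 1, 2 and 3. In deficient replicates 1, 2 and 3 it stood at -0.19, 1.11 and 1.03. Of these markers Ang4 went the other way, with control replicate 2 the highest control at 10.25. Deficient replicate 1, the highest array for Cybrd1, had the lowest mean of the proximal markers. These markers did not move together, as 8 had lower and 2 higher means in the deficient arrays. Otop3 (-3.12), Gstm3 (-2.37) and Cyp2b10 (-2.15) fell most, while Onecut2 (0.69) and Gata4 (0.16) were higher. In deficient replicate 1 Onecut2 read 8.81, its highest value, and Pdx1 read 7.95, within its control range of 7.12 to 9.09. The part of the segment sampled, or of enterocyte or crypt content, in the Cybrd1 and Slc40a1 values was not tested.

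Leukocyte markers moved with the groups as well, and macrophages also express Slc40a1. The macrophage and myeloid list had 10 of 13 markers above 5 on some array, with Cd68, Itgam and C1qc at or below 5 throughout. Of 9 tested, 4 fell past the limma threshold. Of all 13 means, 11 were lower and 2 higher in the deficient arrays. Tyrobp (-2.95), Fcer1g (-2.45) and Adgre1 (-1.96) fell most. Csf1r (-0.64), Lyz2 (-0.41) and Cd14 (-0.31) fell less, and Mrc1 was higher (0.87). The mean of the 10 stood at 0.40, -0.24 and -0.16 in controls and -0.97, -0.91 and -1.60 in deficient replicates 1, 2 and 3. All 13 summed to 11.98 to 12.90 in controls and 11.06 to 11.76 in deficient arrays. Slc40a1 had another order, its brighter probe set being highest in control replicate 2 and deficient replicate 1. The corresponding mean for 11 lymphocyte markers was -4.18, -3.24 and -2.42 in deficient replicates 1, 2 and 3, with Cd8b1 and Cd2 at or below 5 throughout. Deficient replicate 1 was lowest for these and highest for Cybrd1 and Tfrc. The stromal and muscle list also had a lower mean in the deficient arrays, with 0 of 6 tested markers past the limma threshold. The mean of the 7 above 5 stood at 0.70, -0.40 and -0.30 in control replicates 1, 2 and 3 and at -0.89, -0.88 and -0.51 in deficient replicates 1, 2 and 3. Col1a1, Des and Myh11 were at or below 5 throughout, and all 10 summed to 11.04 to 12.20 in controls and 10.44 to 11.01 in deficient arrays. The part of leukocyte or stromal content in these values was not tested.

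**Figure D3:**
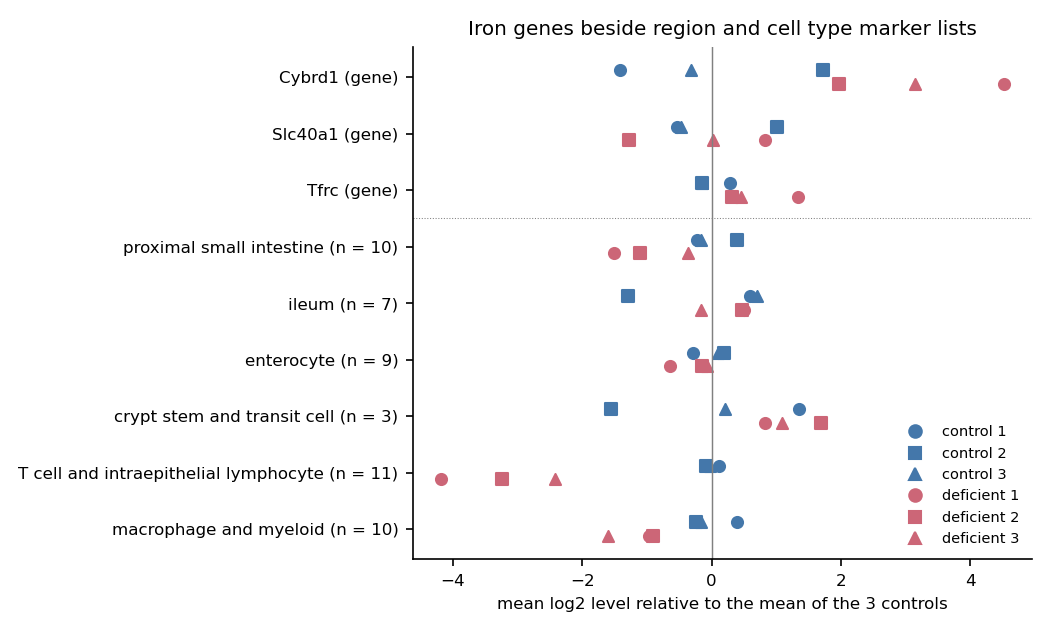
Cybrd1, Slc40a1 and Tfrc beside marker lists. The x axis is the log2 level of the gene, or the mean log2 level of the n markers of a list that exceeded 5 on some array, relative to the mean of the 3 controls, with 1 symbol per array. Control replicate 2 (blue square) is the highest control for Cybrd1 at 1.73 and the lowest array for ileal markers at -1.29, and the lymphocyte markers separate the groups by far more than the proximal or enterocyte markers.

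Of the wider iron pathway, 8 lists with 79 measured genes outside the 10 were examined, of which 59 were tested. In the limma fit 0 of 59 passed at an adjusted p of 0.05, beside 2.09% of all genes tested. The counts per list below stand beside that same share. An unadjusted p under 0.05 was found for 13 (22.0%), beside 16.9% of all genes. By mean, 23 were higher and 36 lower in deficient mice (median difference -0.05). Groups did not overlap for 16 (27.1%), 4 higher and 12 lower, a share near the 25.7% of all genes. The differences of genes named below are values that did not pass this test.

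Among the 59 tested genes, those of heme uptake and breakdown held the largest difference in each direction. Slc46a1, a carrier of folate that also transports heme, read 9.30, 11.16 and 9.66 in control replicates 1, 2 and 3 and 8.08, 7.87 and 9.21 in deficient replicates 1, 2 and 3. The groups did not overlap, and control replicate 2 was again the highest, as for Cybrd1 and Slc40a1. The difference was -1.65 ± 0.56 (SE), limma adjusted p = 0.221, and -1.09 without control replicate 2, a shift of over 1.5 times. Flvcr2, a transporter related to the heme exporter Flvcr1, read 5.49, 4.19 and 6.29 against 7.57, 7.37 and 6.32, a difference of 1.76 ± 0.57 (SE), limma adjusted p = 0.205. Control replicate 3 and deficient replicate 3 were nearly level. Of 7 genes of heme uptake and breakdown, 0 passed, 1 mean was higher and 6 were lower.

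Of 7 tested heme synthesis genes, 6 had lower means, the median was -0.29 and 0 passed the limma threshold. Ppox, the penultimate enzyme of the pathway, read 6.71, 6.35 and 6.45 in control replicates 1, 2 and 3 and 5.20, 5.28 and 5.95 in deficient replicates 1, 2 and 3. The groups did not overlap. The difference was -1.03 ± 0.24 (SE), limma adjusted p = 0.118, and without deficient replicate 3 it passed, at -1.27 with an adjusted p of 0.0367. With single arrays left out the adjusted p ran from 0.0367 to 0.346. Other Ppox probe sets reached a difference of 0.00. Urod, an earlier enzyme, was at -1.0 ± 0.32 (limma adjusted p = 0.202), with both probe sets lower. Cpox, named after its values were seen, was at -0.85 (limma adjusted p = 0.208), and its probe sets ran from -0.85 to 0.01. Alas1, the first enzyme of the pathway, was the 1 with a higher mean, at 0.35.

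Hypoxia factors and their targets, which include the system of Epas1, were mixed, with 8 of 15 means higher, a median of 0.11 and 0 past the limma threshold. Car9, a carbonic anhydrase and classic hypoxia target, read 9.55, 10.04 and 9.36 in control replicates 1, 2 and 3 and 10.65, 10.53 and 10.16 in deficient replicates 1, 2 and 3. All deficient arrays lay above the controls, with a difference of 0.80 ± 0.24 (limma adjusted p = 0.184). Hif1a, the relative of Epas1, was at 0.84 ± 0.30 (limma adjusted p = 0.238), with overlapping groups and 4 probe sets between 0.17 and 1.00.

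Iron sensing was represented by 4 tested genes, 0 of which passed. Aco1, cytosolic aconitase and iron regulatory protein 1, read 13.67, 13.82 and 13.71 in control replicates 1, 2 and 3 and 12.59, 13.24 and 13.51 in deficient replicates 1, 2 and 3, a difference of -0.62 ± 0.25 (limma adjusted p = 0.283). Fbxl5, which marks Ireb2 for degradation when iron is ample, read 11.20, 11.39 and 11.38 against 11.53, 11.90 and 11.68, a difference of 0.38 ± 0.17 (limma adjusted p = 0.313). Neither pair of groups overlapped.

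In the ferritin and chaperone list 0 of 3 passed. Pcbp2, which delivers iron to ferritin, was at -0.27 ± 0.16 and Ncoa4, the receptor for ferritin breakdown, at 0.49 ± 0.41 (limma adjusted p = 0.415 and 0.561). In the transport and reductase list 0 of 11 passed, with the metal importers Slc39a14 at -0.68 ± 0.33 and Slc39a8 at 0.62 ± 0.23 (limma adjusted p = 0.341 and 0.259), although other probe sets of these carriers ran to 0.19 for Slc39a14 and to 0.01 for Slc39a8. In the iron-sulfur cluster list 0 of 8 passed, with Isca1, an assembly factor, at -0.64 ± 0.17 and Fdx1, a mitochondrial ferredoxin, at -0.62 ± 0.23 (limma adjusted p = 0.149 and 0.249). The probe sets of Isca1 disagreed, from -0.64 to 0.36. Of 14 genes of the hepcidin axis and plasma iron proteins, 10 failed the filter. Among these, Hamp, the hormone hepcidin made by liver, lay between 3.45 and 3.57. Of the other 4, 0 passed, with B2m, the partner chain of Hfe, at -0.28 ± 0.24 and the BMP receptor Bmpr1a at 0.18 ± 0.18 (limma adjusted p = 0.576 and 0.618). Probe sets disagreed in sign for Pcbp2 (-0.27 to 0.26), B2m (-0.28 to 0.06) and Bmpr1a (-0.16 to 1.17) as well. The 2 probe sets of Ncoa4 shared a sign but differed in size, at 0.49 and 1.52.

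**Figure D4:**
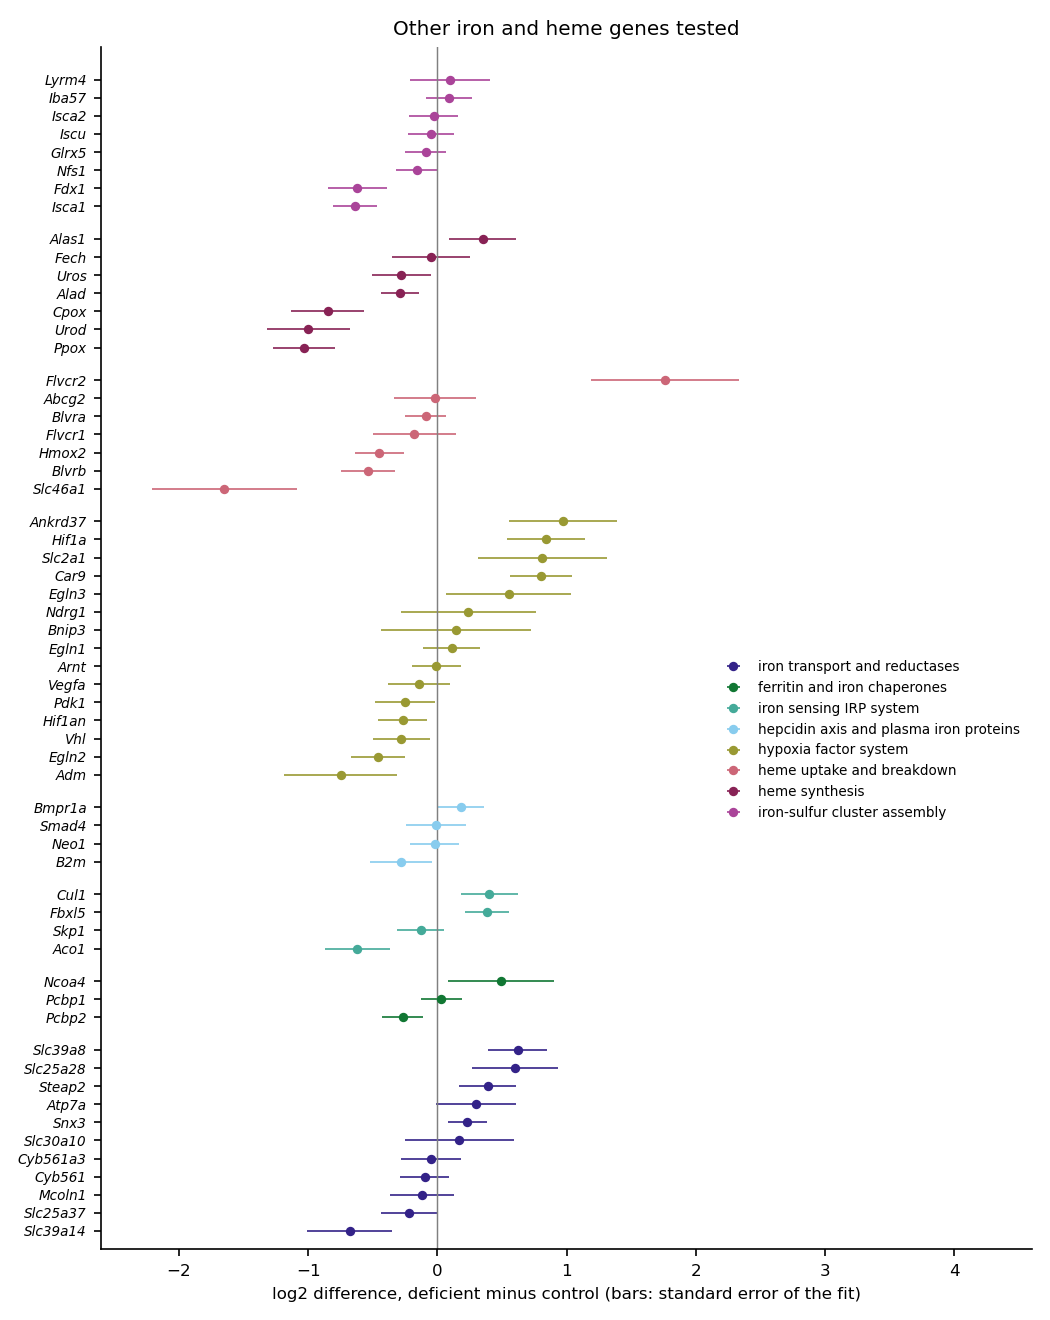
Log2 difference, deficient minus control, of the 59 tested iron and heme genes outside the 10, grouped by list and ordered by difference, with bars for the standard error of the limma fit. Points range from Slc46a1 at -1.65 to Flvcr2 at 1.76, and 0 of the 59 passed at an adjusted p of 0.05, beside 2.09% of all genes tested.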

How the data were processed

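The deposited values are log2 expression values made by the authors, 1 per probe set and array. Partek 6.5 and GCRMA are named, without their roles, per the submitters' processing notes. The log2 scale was inferred from values of 0.42 to 16.4, and centring is not stated. Such corrections gather dim probe sets near a floor. The number of arrays limits precision. Nothing says whether mice shared a litter or scan batch. The members and lists were chosen with earlier results of these data known.

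After 64 control probe sets were left out, each gene was represented by its probe set with the highest mean (34945 probe sets had a single symbol, 932 several and 9160 none). Genes above 5 on at least 3 arrays, 8893 in all, were fitted with limma 3.58.1 in R 4.3.3 (lmFit, eBayes, no covariate, Benjamini-Hochberg adjustment, threshold 0.05). Differences are deficient minus control. The fit was tested on simulated data. Named genes are all members, up to 4 called genes per list or else the 2 with the smallest p, and the 5 most like Cybrd1. Of 86 list entries, 79 genes were used, with Hfe2 counted as Hjv, and some list entries are not reported here. Alternatives changed moderation, weights, filter, normalization, probe sets, replicate block and left-out array.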

Additional observations from a re-analysis of the deposited data

How the results depend on the processing

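In all 16 alternatives 0 members passed, and 0 of the other iron genes passed except in the fits that left out 1 array, where the number ran from 0 to 1 (Ppox, without deficient replicate 3). The number of genes called over the whole table, 186, became 293 with array weights, 85 with no filter and 117 with the mean of a gene's probe sets, and ran from 93 to 239 when 1 array was left out (93, 101 and 104 without control replicate 1, deficient replicate 2 and control replicate 3). The median difference of the 10 members, -0.15, became 0.00 with the mean of probe sets and -0.05 over single probe sets, and ran from -0.26 to -0.07 with 1 array left out. Cybrd1 stayed between 3.08 and 3.45 in the other alternatives and between 2.50 and 4.08 with 1 array left out. Slc40a1 changed sign in 4 alternatives. These were the mean of probe sets and single probe sets (0.20 each), and the fits without control replicate 2 (0.36) or deficient replicate 2 (0.43). Epas1 changed sign in 2, the same probe set alternatives (0.05 each). Ireb2 did so in 2, among them without control replicate 2 (0.09), and Steap4 in 1, without control replicate 1 (0.06). No cause beyond these settings was tested. Deviations of same-numbered arrays correlated at 0.0485, -0.291 and 0.00211, and those of differently numbered arrays at -0.286 to 0.242. These values gave no sign of a pairing by replicate number. With 3 arrays per group they cannot exclude a shared litter or batch. With the replicate block, 141 genes were called over the whole table, 0 of them members. Levels near the floor limit Steap4, Hfe, the dimmer Cybrd1 probe set and the dimmest Slc11a2 probe set, and 3 arrays per group limit the rest.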

Other observations

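The arrays stood in the same order within each group for Cybrd1 and Slc40a1: control replicates 2, 3 and 1 from high to low, and deficient replicates 1, 3 and 2. Of 8892 other tested genes, 343 (3.86%) had that order in both groups. Among the 59 tested iron genes outside the members, 9 (15.3%) had it. They included Slc30a10, a manganese exporter, Cyb561a3, a lysosomal cytochrome b561, the ferritin receptor Ncoa4 and the lysosomal channel Mcoln1. The others were the hypoxia targets Adm, Bnip3, Ndrg1 and Slc2a1, and Neo1, from the hepcidin axis list. These genes were named after their values were seen, the arrays are shared by all of them, and no test was made of this share.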
